A study of Homo sapiens with 6 samples.

Results

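Aminoacyl-tRNA synthetases, the enzymes that attach each amino acid to its tRNA, were examined in Huh7 cells infected with a VPS72 lentivirus and in Huh7 cells infected with a FLAG lentivirus. The set was a list of 35 gene symbols, found as 35 rows of a table of 37822 genes. It was divided by name into 19 cytosolic enzymes and 16 mitochondrial enzymes whose symbols end in 2. Huh7 is a human hepatocellular carcinoma line. The VPS72 group had 3 libraries from cells labelled as VPS72 overexpression, and the FLAG group had 3 libraries from cells labelled WT, which carried the FLAG control virus. Both groups were exposed to virus for 24 h. The virus was packaged in HEK293T cells, and the labels name neither the promoter of the transgene nor whether the replicates came from separate cultures. P-values therefore cover the variation among these libraries alone, and that variation may be technical.

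Synthetases of the cytosol charge tRNAs for ribosomes that read nuclear mRNAs, and their mitochondrial counterparts charge tRNAs for the organelle's own ribosomes. Both kinds are encoded in the nucleus. GARS1 and KARS1 each give rise to a cytosolic and a mitochondrial enzyme, and mitochondrial glutaminyl-tRNA is made by an amidotransferase from a mischarged tRNA. Several cytosolic enzymes sit in the multisynthetase complex, held together by the scaffold proteins AIMP1, AIMP2 and EEF1E1. ATF4, the transcription factor of the integrated stress response, is known to raise the transcription of many cytosolic synthetase genes when amino acids are scarce, and it does so through a composite element shared with C/EBP proteins. VPS72 binds the histone variant H2A.Z and belongs to the SRCAP and TIP60 complexes, which act on chromatin.

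That composite element has the core TGATGCAA, which was searched on both strands of RefSeq promoter windows (GRCh38.p14) reaching from 250 bases before to 50 bases after each annotated start. Windows were given for 16 of the 19 cytosolic and 14 of the 16 mitochondrial genes. None was given for LARS1, VARS1, YARS1, AARS2 and VARS2, so these genes were not searched. The core stood in the windows of 6 cytosolic genes (AARS1, CARS1, IARS1, MARS1, NARS1 and TARS1) and of 0 mitochondrial genes. Of all 27305 genes with a window, 1.08% held it. These 6 stretches are shown because the core was found in windows of the cytosolic class only. GARS1 is added with the looser core TGATGNAA, which contains the first motif and was found in 7 cytosolic genes, 1 mitochondrial gene (YARS2) and 4.46% of all genes. Each is written 5′ to 3′ on the gene's strand, with the motif in capitals, and a match is a description of letters and not of a bound site.
AARS1, chr16:70289646-70289713, minus strand: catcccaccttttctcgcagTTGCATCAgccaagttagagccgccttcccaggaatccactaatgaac
CARS1, chr11:3057399-3057468, minus strand: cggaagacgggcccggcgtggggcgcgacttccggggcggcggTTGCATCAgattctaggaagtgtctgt
IARS1, chr9:92293673-92293742, minus strand: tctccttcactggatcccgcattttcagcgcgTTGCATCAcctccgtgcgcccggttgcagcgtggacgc
MARS1, chr12:57488023-57488092, plus strand: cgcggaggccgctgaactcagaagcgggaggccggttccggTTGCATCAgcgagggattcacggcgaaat
NARS1, chr18:57621812-57621881, minus strand: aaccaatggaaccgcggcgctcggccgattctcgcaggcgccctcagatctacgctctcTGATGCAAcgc
TARS1, chr5:33440920-33440989, plus strand: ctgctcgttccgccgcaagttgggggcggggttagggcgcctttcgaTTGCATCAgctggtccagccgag
GARS1, chr7:30594833-30594902, plus strand: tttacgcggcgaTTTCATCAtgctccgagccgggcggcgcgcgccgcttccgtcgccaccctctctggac

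In AARS1 the match began at -187 relative to the annotated first transcribed base, and in the other 5 genes with the full core it lay between -13 and 14. The motif was chosen for search after the values of these genes were known, and the annotated starts are those of RefSeq, not starts measured in Huh7 cells.

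Libraries held 21345279 to 29091824 counts, and 14253 genes passed the filter on low counts, all 35 synthetases among them. VPS72 mRNA stood at 1161 ± 11.5 CPM, that is, counts scaled to a common library total, in VPS72 libraries and 24.0 ± 2.70 CPM in FLAG libraries (SD, n = 3 each), in the direction of the labels. Of 8 hepatocyte markers 8 were detected, and their summed level was 20096 to 20909.6 CPM in VPS72 libraries and 18167 to 19030.4 CPM in FLAG libraries. Of these markers 6 of 8 were called higher in VPS72 libraries by edgeR, where 0.421% of all tested genes were. Marker sums of other cell types ran from 13.6 to 14.3 CPM in VPS72 and 10.9 to 12.8 CPM in FLAG libraries for 6 immune genes, and from 4.08 to 4.88 CPM in VPS72 and 2.86 to 4.61 CPM in FLAG libraries for 5 endothelial genes. Those of 6 fibroblast genes ran from 200.006 to 208 CPM in VPS72 and 169.6 to 183 CPM in FLAG libraries, nearly all of it LUM, which was called higher in VPS72 libraries (0.26 ± 0.04 on the log2 scale; edgeR adjusted p = 0.00745). No marker was at 0 in all 6 libraries, and the part of these levels in the results was not tested. In bulk RNA, fewer cells with a transcript and less of it per cell cannot be told apart.

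The cytosolic enzymes were the more abundant class. Per kilobase of coding length, their median level was 54.4 CPM in VPS72 libraries and 56.1 CPM in FLAG libraries, while that of the mitochondrial enzymes was 9.95 CPM in VPS72 and 10.4 CPM in FLAG libraries. NARS1, the asparaginyl enzyme, and GARS1, the glycyl enzyme, had the highest levels per kilobase. NARS1 reached 126 CPM per kilobase in VPS72 and 121 in FLAG libraries, and GARS1 reached 116 in VPS72 and 127 in FLAG libraries. CARS1, the cysteinyl enzyme, was the least abundant cytosolic member, at 16.3 CPM per kilobase in VPS72 and 15.5 in FLAG libraries. Among mitochondrial enzymes RARS2, for arginine, led with 30.6 CPM per kilobase in VPS72 and 30.1 in FLAG libraries. VARS2, for valine, was listed lowest, with 0.127 in VPS72 and 0.181 in FLAG libraries. The table also lists at 0 a gene that every cell uses, EEF1G, and whether the low values of VARS2, SARS2, TSFM and ASNS follow from how reads were assigned to genes was not tested. The coding length is that of the longest coding sequence in GENCODE 29, so levels of genes with long untranslated regions are overstated.

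**Figure D1:**
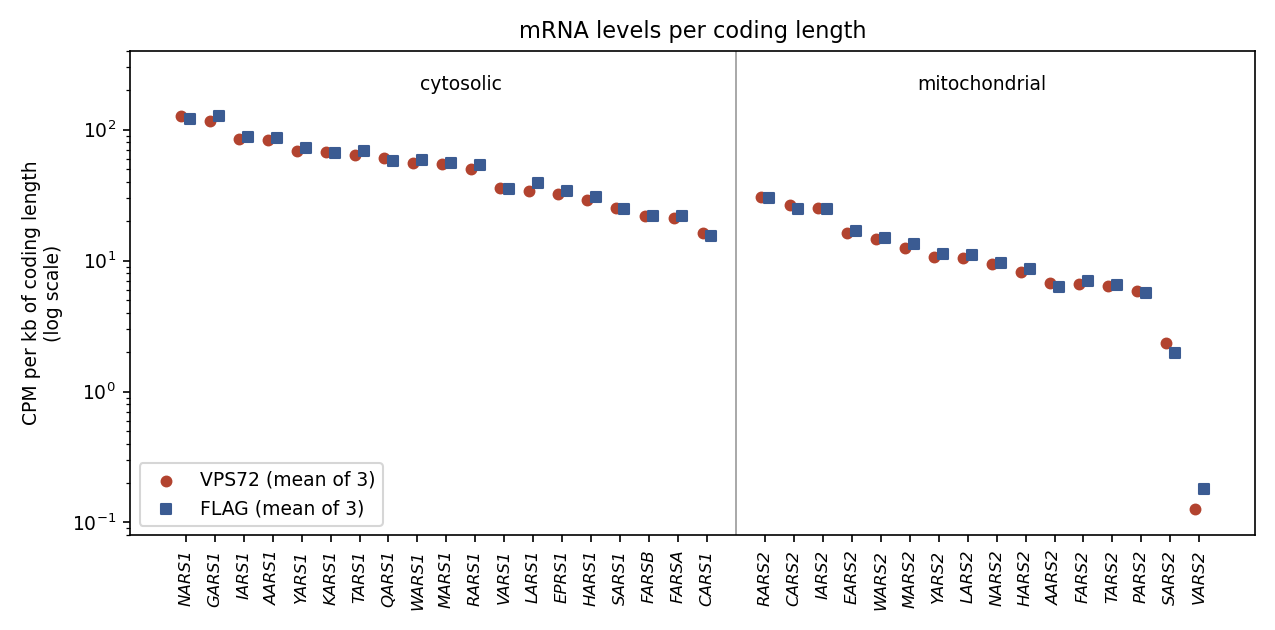
Mean CPM per kilobase of coding length (log axis) of each synthetase mRNA in 3 VPS72 libraries (circles) and 3 FLAG libraries (squares). Most mitochondrial enzymes lie below the cytosolic ones, with SARS2 and VARS2 the lowest, and the circles and squares of each gene lie close together.

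Both a cytosolic and a mitochondrial enzyme were measured for 16 amino acids. For 14 of them the cytosolic enzyme serves 1 amino acid, which gives 15 pairs because the phenylalanyl enzyme has the 2 subunits FARSA and FARSB. Glutamate and proline, both served in the cytosol by the fused EPRS1, were left out of these pairs and are given separately. The cytosolic member had the higher level per kilobase in 14 of 15 pairs in FLAG libraries. The ratio was 12.4 in VPS72 and 13.6 in FLAG libraries for AARS1 over AARS2, and 1.62 in VPS72 and 1.77 in FLAG libraries for RARS1 over RARS2. The exception was cysteine, where CARS1 stood at 0.618 of CARS2 in VPS72 and 0.627 of CARS2 in FLAG libraries. 

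No synthetase passed the test between the groups. By edgeR's quasi-likelihood test with Benjamini-Hochberg adjustment over all genes, 0 of 19 cytosolic and 0 of 16 mitochondrial enzymes passed a threshold of 0.05, where 0.617% of all tested genes did. Over all genes 60 were called higher and 28 lower, and 32 higher and 54 lower when scaled by library size alone. The adjusted p ran from 0.0586 for LARS1 to 0.99 for FARSB. At an unadjusted p under 0.05 there were 5 cytosolic enzymes, all lower in VPS72 libraries, and 0 mitochondrial enzymes, against 5.51% of all tested genes that were lower at that p and 6.03% that were higher. That count of 5 was 2 without FLAG replicate 2 and 3 without VPS72 replicate 1 or VPS72 replicate 2. The 2 classes differ in precision as well as in their counts at this p, since the median standard error of a log2 fold change was 0.04 for cytosolic and 0.11 for mitochondrial enzymes. DESeq2 called 2 cytosolic enzymes lower, LARS1 and GARS1, and limma-voom called 1, LARS1. Of all 14253 genes they called 63 and 36 lower, and 1.75% and 0.898% in either direction. DESeq2 gave no adjusted p to 13 of the 16 mitochondrial enzymes, while all 19 cytosolic enzymes had one. Its 1.75% counts genes without an adjusted p as not called, so the share among genes that had one is higher. That share was not computed.

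**Figure D2:**
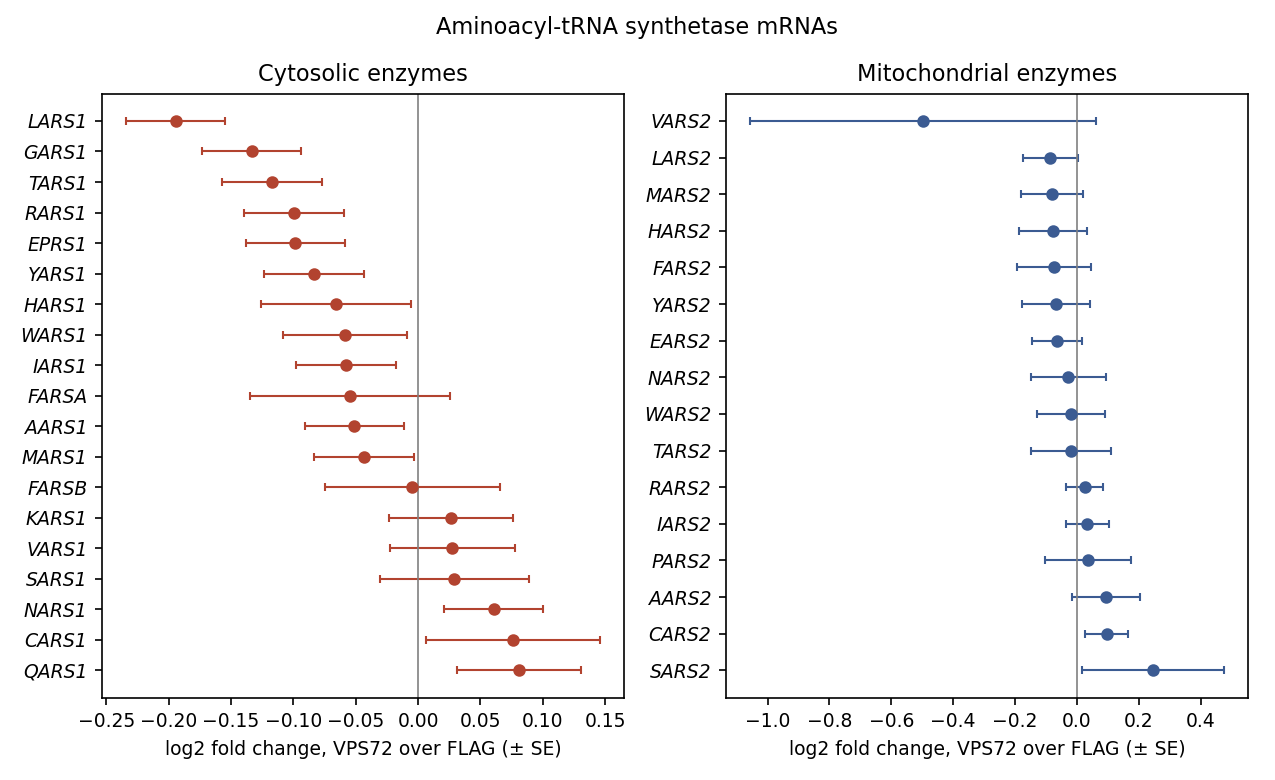
Log2 fold change of each synthetase mRNA, VPS72 over FLAG, with its standard error (3 libraries per group), cytosolic enzymes on the left and mitochondrial enzymes on the right; the horizontal scales differ. Points run from -0.19 for LARS1 to 0.08 for QARS1 among cytosolic enzymes, and VARS2 and SARS2 have the widest bars.

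LARS1, the leucyl enzyme and a known leucine sensor upstream of mTORC1, had the lowest log2 fold change of the cytosolic class. Its level was 126, 116 and 120 CPM in VPS72 replicates 1 to 3 and 136, 137 and 140 CPM in FLAG replicates 1 to 3. All 3 VPS72 libraries lay below all 3 FLAG libraries. Its log2 fold change of -0.19 ± 0.04 (SE) had an adjusted p of 0.0586 by edgeR, for a difference of -12.6%. It passed with DESeq2 (adjusted p = 0.00536), limma-voom (0.0474), cyclic loess normalisation in limma (0.0488), library size scaling (edgeR, 0.033) and no filter on low counts (edgeR, 0.0131). In either direction, cyclic loess called 0.386% of all tested genes and the fit with no filter 1.06%. Their lower calls were 26 of 14253 and 98 of 24833 genes. Leaving out single libraries with edgeR gave values from -0.22 to -0.16, with adjusted p up to 0.237.

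GARS1, which supplies glycyl-tRNA in both compartments, had 251, 259 and 259 CPM in VPS72 replicates 1 to 3 and 285, 287 and 271 CPM in FLAG replicates 1 to 3. The groups did not overlap. Its log2 fold change was -0.13 ± 0.04 (adjusted p = 0.141, edgeR), and it passed with DESeq2 (adjusted p = 0.0237).

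TARS1, the threonyl enzyme, had 143, 145 and 145 CPM in VPS72 libraries and 156, 162 and 152 CPM in FLAG libraries (-0.12 ± 0.04; adjusted p = 0.258, edgeR). EPRS1, a fused glutamyl and prolyl enzyme of the multisynthetase complex, had 144, 142 and 149 CPM in VPS72 libraries and 154, 155 and 157 CPM in FLAG libraries (-0.10 ± 0.04). RARS1, the arginyl enzyme of the same complex, had 98.5, 99.3 and 97.2 CPM in VPS72 libraries and 104, 109 and 103 CPM in FLAG libraries (-0.10 ± 0.04). In each of these 3 genes the highest VPS72 library lay below the lowest FLAG library. Their unadjusted p was 0.0123, 0.0274 and 0.0358 by edgeR, and the adjusted p of EPRS1 and RARS1 was 0.348 and 0.383 by edgeR's Benjamini-Hochberg adjustment.

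YARS1, the tyrosyl enzyme, was the other gene with no overlap in that direction, at 108 ± 2.12 CPM in VPS72 and 115 ± 2.94 CPM in FLAG libraries (SD, n = 3 each; edgeR unadjusted p = 0.0698). Groups did not overlap in 6 of 19 cytosolic enzymes with VPS72 lower and in 1 with VPS72 higher, and in 0 of 16 mitochondrial enzymes. Of all tested genes, 8.47% did not overlap with VPS72 lower and 8.76% with VPS72 higher.

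**Figure D3:**
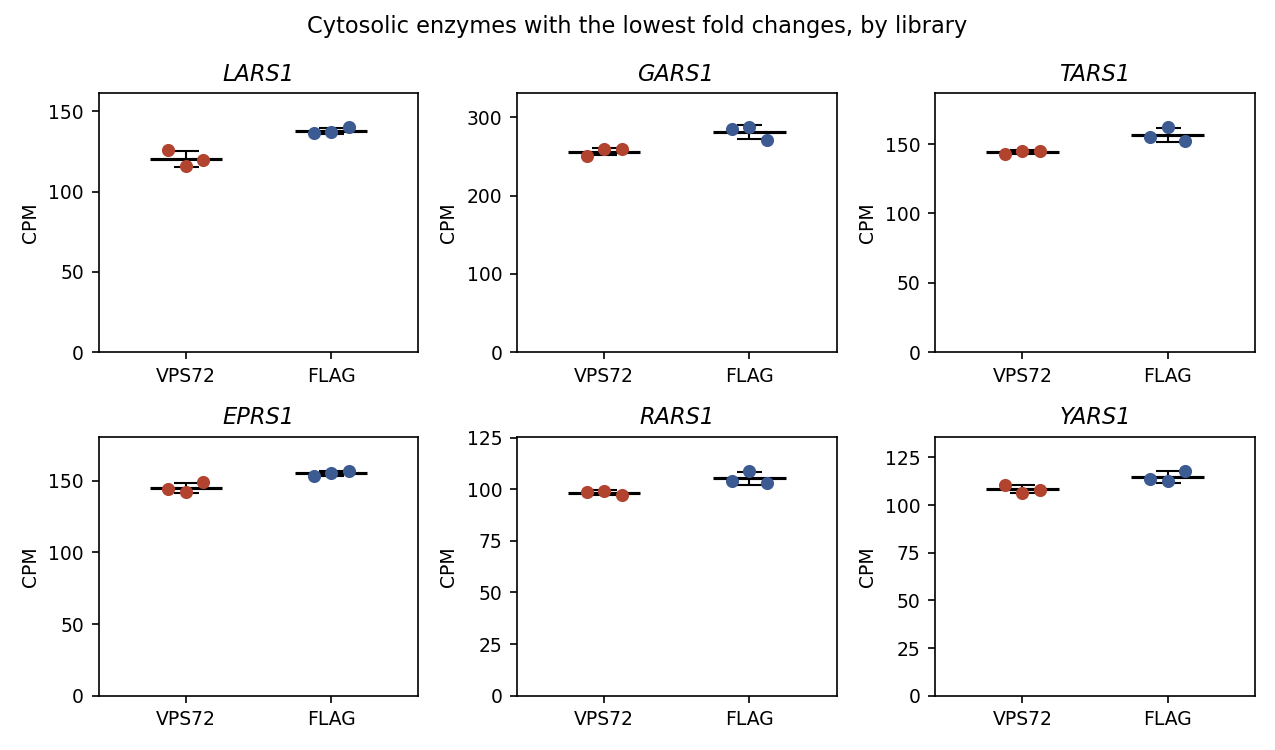
CPM in each of 3 VPS72 libraries (left) and 3 FLAG libraries (right) for the 6 cytosolic enzymes whose groups do not overlap with VPS72 lower; the black line is the mean and the bars are ± SD. Differences are small beside the level of each gene, with percent changes between -5.62 in YARS1 and -12.6 in LARS1.

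At the other end of the cytosolic class, 3 enzymes had the highest log2 fold changes. QARS1, the glutaminyl enzyme, had 147, 142 and 138 CPM in VPS72 libraries and 124, 144 and 135 CPM in FLAG libraries (0.08 ± 0.05). CARS1 had 42.7, 38.9 and 40.4 CPM in VPS72 libraries and 36.6, 39.8 and 39.4 CPM in FLAG libraries (0.08 ± 0.07). NARS1 had 208, 208 and 206 CPM in VPS72 libraries and 190, 202 and 204 CPM in FLAG libraries (0.06 ± 0.04). NARS1 was the cytosolic enzyme whose groups did not overlap with VPS72 higher, and in QARS1 and CARS1 the groups overlapped. None passed, with adjusted p from 0.609 to 0.736 by edgeR. Without FLAG replicate 1 the values were 0.03 for QARS1, 0.04 for CARS1 and 0.03 for NARS1. QARS1 was 0.14 without FLAG replicate 2, and CARS1 was 0.04 without VPS72 replicate 1. FLAG replicate 1 was the lowest of the 6 libraries for all 3, and it was also the lowest for KARS1 (117 CPM), VARS1 (129 CPM), AARS1 (237 CPM) and MARS1 (143 CPM).

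The other 9 cytosolic enzymes besides HARS1 (IARS1, WARS1, FARSA, AARS1, MARS1, FARSB, KARS1, VARS1 and SARS1) had log2 fold changes from -0.06 for WARS1 to 0.03 for SARS1, and their groups overlapped.

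As a class, the cytosolic enzymes had a median log2 fold change of -0.05, with 13 of 19 negative, where the median of all tested genes was 0.00 and 51.2% of them were negative. The mitochondrial enzymes had a median of -0.02, with 10 of 16 negative. Library medians varied around the group by an SD of 0.0211 (log2) in the cytosolic class and 0.0181 in the mitochondrial class. The cytosolic median moved between -0.08 and -0.02 when single libraries were left out, the value nearest 0 being without VPS72 replicate 3, and the mitochondrial median between -0.05 and 0.01, changing sign without FLAG replicate 2. Summed over the class, cytosolic enzymes took 2471 ± 18.8 CPM in VPS72 and 2558 ± 58.5 CPM in FLAG libraries (SD, n = 3 each). The sums were 2477, 2486 and 2449.6 CPM in VPS72 replicates 1 to 3 and 2496, 2612 and 2566.5 CPM in FLAG replicates 1 to 3, so the groups did not overlap, and FLAG replicate 1 lay nearer to VPS72 replicate 2 than to the other FLAG libraries. The mitochondrial sum was 364 ± 1.16 CPM in VPS72 and 363 ± 1.91 CPM in FLAG libraries.

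The 7 members in the multisynthetase complex had a median log2 fold change of -0.06, from -0.19 for LARS1 to 0.08 for QARS1, and the other 12 cytosolic enzymes one of -0.05. Their scaffold proteins did not pass either. AIMP1 stood at 38.2 ± 0.767 CPM in VPS72 and 39.5 ± 2.59 CPM in FLAG libraries, and AIMP2 at 57.0 ± 3.07 CPM in VPS72 and 55.9 ± 2.66 CPM in FLAG libraries (SD, n = 3 each), with log2 fold changes of -0.05 ± 0.07 and 0.03 ± 0.06. By catalytic fold, the median was -0.06 over 18 class I enzymes and -0.02 over 16 class II enzymes, with EPRS1, which has both, in neither. Cytosolic genes with the core TGATGCAA in a promoter window had a median of -0.05 (6 genes, from -0.12 for TARS1 to 0.08 for CARS1). Those with a window and no such core had a median of -0.06 (10 genes). GARS1 (-0.13), which holds only the looser core TGATGNAA, was counted among these 10. LARS1, VARS1 and YARS1 had no window and are in neither group. The 2 genes at the ends of the first group, TARS1 and CARS1, both carry the core within a few bases of an annotated start, as the printed stretches show.

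The mitochondrial enzymes showed wider spreads and no group without overlap. SARS2, the seryl enzyme, had the highest log2 fold change, 0.25 ± 0.23, from 3.69, 3.22 and 4.10 CPM in VPS72 libraries and 2.85, 4.003 and 2.37 CPM in FLAG libraries. CARS2 had 43.2, 45.5 and 45.4 CPM in VPS72 libraries and 46.2, 37.5 and 41.7 CPM in FLAG libraries (0.10 ± 0.07). AARS2, the alanyl enzyme, had 20.7, 20.9 and 17.7 CPM in VPS72 libraries and 16.2, 19.0 and 20.5 CPM in FLAG libraries (0.09 ± 0.11). The groups overlapped in all 3. Leaving out single libraries moved SARS2 from 0.10 (without FLAG replicate 3) to 0.49 (without FLAG replicate 2). CARS2 moved from 0.02 (without FLAG replicate 2) to 0.18 (without FLAG replicate 1). AARS2 was 0.00 without FLAG replicate 1, 0.06 without VPS72 replicate 1 or 2, and 0.17 without VPS72 replicate 3 or FLAG replicate 3.

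VARS2 had the lowest log2 fold change, -0.50 ± 0.56, on 10, 15 and 8 counts in VPS72 libraries and 6, 24 and 13 counts in FLAG libraries. No difference was detected at these counts, and without FLAG replicate 2 the value was 0.03. LARS2, the leucyl enzyme of mitochondria, had 31.0, 27.4 and 26.7 CPM in VPS72 libraries and 31.1, 33.3 and 26.0 CPM in FLAG libraries (-0.09 ± 0.09), and leaving out single libraries gave -0.18 (without FLAG replicate 3) to -0.01 (without FLAG replicate 2). MARS2, the methionyl enzyme, had 21.9, 22.3 and 22.9 CPM in VPS72 libraries and 21.9, 27.4 and 21.6 CPM in FLAG libraries (-0.08 ± 0.10), and FLAG replicate 2 set its mean: the value was 0.04 without it. RARS2 had 53.1 ± 1.49 CPM in VPS72 and 52.2 ± 3.01 CPM in FLAG libraries (SD, n = 3 each; 0.03 ± 0.06). The log2 fold changes of FARS2, YARS2, EARS2, NARS2, WARS2, IARS2 and PARS2 ran from -0.07 to 0.04. The adjusted p of the 16 enzymes ran from 0.682 to 0.98 by edgeR.

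The paired enzymes of an amino acid were set side by side. The cytosolic member had the lower log2 fold change in 9 of 15 pairs. Both were negative in 8 pairs and both positive in 2. EPRS1, at -0.10 ± 0.04, stood beside EARS2 at -0.06 ± 0.08 and PARS2 at 0.04 ± 0.14, and with these the cytosolic member was lower in 11 of 17 pairs and both were negative in 9. Leucine had -0.19 ± 0.04 for LARS1 and -0.09 ± 0.09 for LARS2. Threonine had -0.12 ± 0.04 for TARS1 and -0.02 ± 0.13 for TARS2, and arginine had -0.10 ± 0.04 for RARS1 and 0.03 ± 0.06 for RARS2. The order was the other way in 6 pairs. Asparagine had 0.06 ± 0.04 for NARS1 and -0.03 ± 0.12 for NARS2, methionine had -0.04 ± 0.04 for MARS1 and -0.08 ± 0.10 for MARS2, and FARSA, FARSB, HARS1 and VARS1 were the others. These differences between genes were not tested, and the standard errors of LARS2 and TARS2 are larger than their values.

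**Figure D4:**
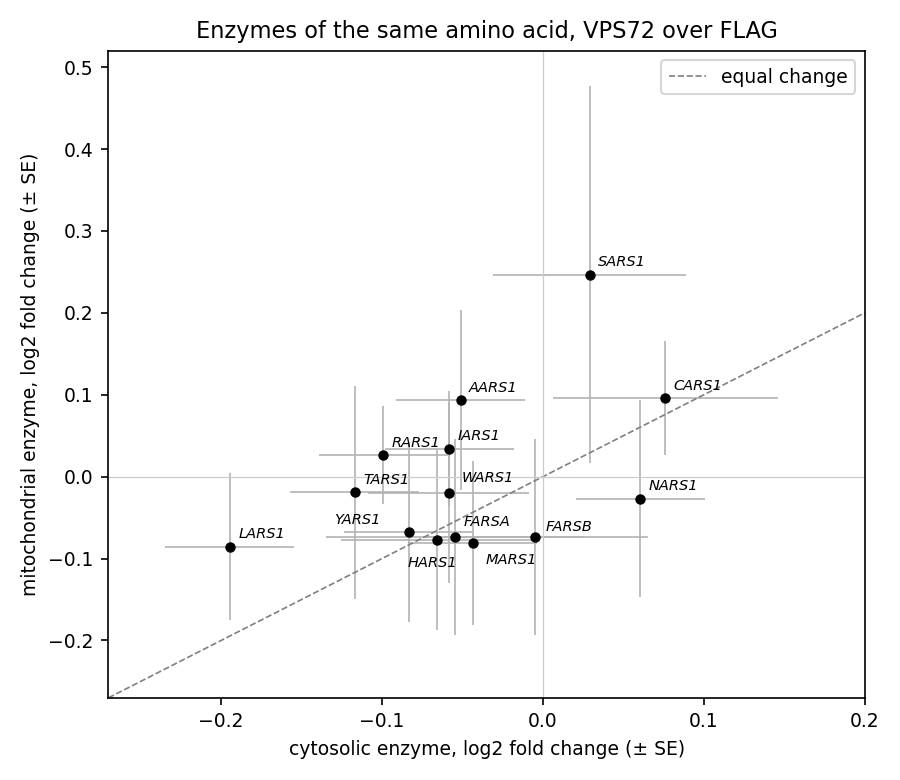
Log2 fold change (VPS72 over FLAG, ± SE, 3 libraries per group) of the mitochondrial enzyme against that of the cytosolic enzyme of the same amino acid, labelled by the cytosolic gene; VARS1 with VARS2, at -0.50, is left out for scale. Points lie on both sides of the dashed line of equal change, with LARS1 at -0.19 farthest to the left.

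Histidine has a particular layout: HARS1 and HARS2 are neighbours on chromosome 5, transcribed away from each other. Between their annotated starts lie 84 bases, shown here on the strand of HARS2 (RefSeq, GRCh38.p14) because both genes start from this stretch. Capitals mark CCGGAAG in either orientation, the core bound by ETS family factors. It is not particular to this pair: 9 of 16 cytosolic and 7 of 14 mitochondrial genes held it in a window, and 12.2% of all genes did.
HARS1 and HARS2, chr5:140691371-140691454, plus strand: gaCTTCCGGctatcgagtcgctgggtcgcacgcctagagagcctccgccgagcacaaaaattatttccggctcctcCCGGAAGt
HARS1 had 46.4, 45.1 and 41.7 CPM in VPS72 libraries and 45.6, 46.7 and 47.4 CPM in FLAG libraries (-0.07 ± 0.06). HARS2 had 12.1, 13.0 and 12.7 CPM in VPS72 libraries and 13.7, 12.1 and 14.1 CPM in FLAG libraries (-0.08 ± 0.11). The groups overlapped in both genes. Their annotated exons overlap on opposite strands, and without a stated strand setting reads of the overlap cannot be assigned to one of them.

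Genes that work beside the synthetases were read from the same fit. Of 14 genes for mitochondrial charging and translation, 0 passed by edgeR (0 also at an unadjusted p under 0.05), with a median of -0.07. The lowest p were those of GATB, a subunit of the mitochondrial glutamyl-tRNA amidotransferase (16.1 ± 1.14 CPM in VPS72 and 18.2 ± 0.777 CPM in FLAG libraries; -0.18 ± 0.10), and TSFM, a mitochondrial elongation factor (0.907 ± 0.298 CPM in VPS72 and 1.40 ± 0.078 CPM in FLAG libraries; -0.64 ± 0.38), with SD over 3 libraries each. Of 6 tested cytosolic elongation factor genes 0 passed by edgeR and 3 had an unadjusted p under 0.05, 2 higher and 1 lower, where 6.03% of all tested genes were higher and 5.51% lower at that p. Their median was 0.00. EEF1A2 stood at 10.7 ± 0.294 CPM in VPS72 and 14.4 ± 1.42 CPM in FLAG libraries (-0.43 ± 0.11; edgeR, Benjamini-Hochberg adjusted p = 0.108). EEF1A1, which delivers charged tRNAs to the ribosome, stood at 2328 ± 34.6 CPM in VPS72 and 2217 ± 36.6 CPM in FLAG libraries (0.07 ± 0.02; edgeR, adjusted p = 0.182). EEF1G, a subunit of the same elongation machinery, is listed at 0 in all 6 libraries, so a low value in this table, that of TSFM included, need not be a low level in the cells.

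Other known ATF4 targets were read as a list of 25 genes. Of 23 tested, 1 fell by edgeR (28 of all 14253 genes, 0.196%, were called lower), 22 did not pass, and 8 were lower at an unadjusted p under 0.05, where 5.51% of all tested genes were. The list median was -0.12, against 0.00 for all tested genes. SLC7A11, the cystine transporter, fell to 43.4 ± 1.37 CPM in VPS72 libraries, against 60.5 ± 0.511 CPM in FLAG libraries (SD, n = 3 each; -0.48 ± 0.05; edgeR, Benjamini-Hochberg adjusted p = 0.000542). XPOT, the nuclear export receptor of tRNAs, had 174 ± 0.642 CPM in VPS72 and 188 ± 3.64 CPM in FLAG libraries (-0.11 ± 0.04; adjusted p = 0.24 by edgeR); it was singled out with its values in view. ATF4 mRNA itself stood at 162 ± 9.43 CPM in VPS72 and 166 ± 9.52 CPM in FLAG libraries (-0.03 ± 0.05), and ATF3, a related stress factor, fell to 18.1 ± 1.16 CPM in VPS72 libraries against 32.6 ± 2.96 CPM in FLAG libraries (-0.85 ± 0.09; edgeR, adjusted p = 0.000362). ATF4 is controlled largely at translation, and its protein was not measured here. The medians of the cytosolic synthetases, -0.05, and of the other ATF4 targets, -0.12, were not tested against each other.

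**Figure D5:**
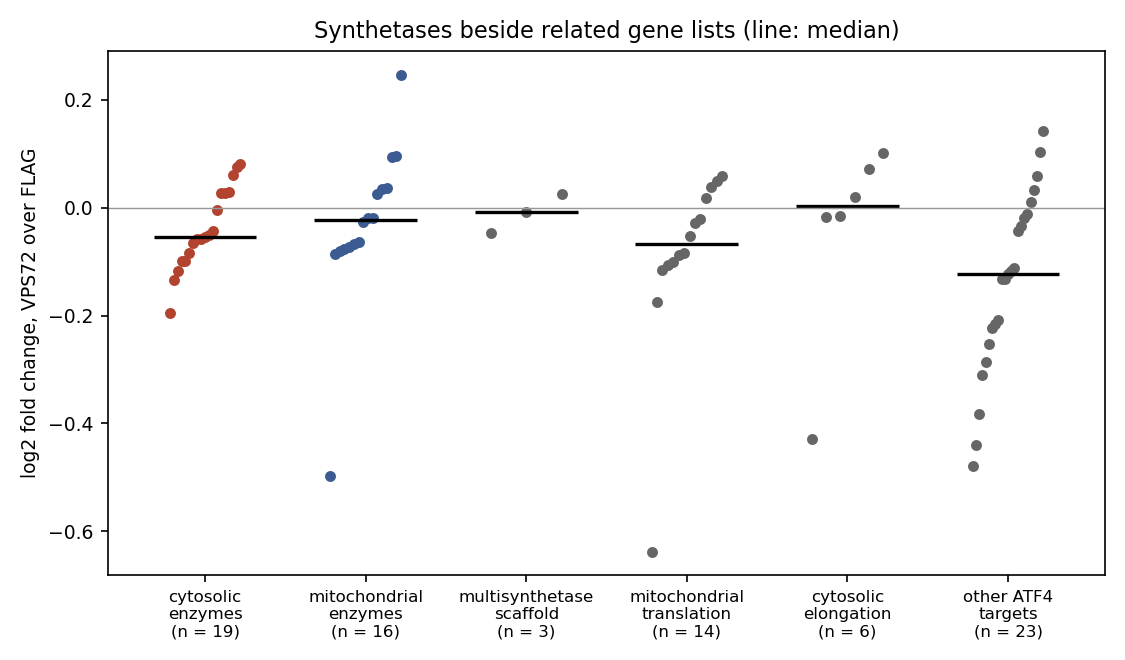
Log2 fold change (VPS72 over FLAG) of each tested gene in the 2 synthetase classes and in 4 related lists, with the median as a line. Cytosolic synthetases spread from -0.19 to 0.08, and the other ATF4 targets from -0.48 to 0.14.

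Some values are less certain than the rest. The table holds 14 rows for synthetase pseudogenes, with at most 37 counts in any library, the largest being KARS1P2, where KARS1 had 2781 to 3669. Exons of 14 of the 35 genes overlap another gene in GENCODE 29. On opposite strands these include LARS1 with AC091887.1, GARS1 with GARS-DT (at most 900.0 counts in a library) and YARS1 with S100PBP (at most 1335). MARS1 with DDIT3, EARS2 with UBFD1 and SARS2 with MRPS12 (at most 397) are others on opposite strands. SARS2 also overlaps AC011455.2, a protein-coding gene, on its own strand. No counts are listed under the names AC091887.1 and AC011455.2.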

How the data were processed

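Per the labels' protocols, RNA of Huh7 cells was taken up in RNAzol and libraries came from a KAPA RNA HyperPrep kit. The table that the authors deposited holds estimated counts for each gene, unnormalized and already whole. STAR, RSEM, limma, hg19 and hg38 appear in the submitters' processing notes with no role, order or version. The sources used here give neither annotation nor strand setting. Counters such as RSEM share ambiguous reads out among genes of like sequence.

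Groups and replicate numbers come from the sample titles. Genes were kept by filterByExpr (minimum count 10, minimum total 15), which left 14253 genes with 99.925% of the counts. VPS72 was compared with FLAG by edgeR 4.0.16 (R 4.3.3) with TMM scaling, the quasi-likelihood test and Benjamini-Hochberg adjustment over all tested genes, at 0.05. The standard error is the log2 fold change divided by the root of F. CPM uses TMM-scaled library sizes, except for marker sums, which use the unscaled totals. The common coefficient of variation was 7.24%. Libraries of a group differed by more than sampling noise (chi-square per degree of freedom 4.70 to 7.69), and each was counted as 1 sample. A comparison of single values over 3 and 3 libraries cannot reach an exact permutation p below 0.1, so the fit across all genes was used.

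Alternatives were DESeq2 1.42.0, limma 3.58.1 (voom, and cyclic loess normalised log2 CPM), other scalings and filters, the replicate number as a block, VPS72 left out of the table, and each library left out. The members and lists were chosen with earlier results of these data known. Described in full were members at an unadjusted p under 0.05, the 3 largest and 3 smallest log2 fold changes of each class, and the most and least abundant member per coding length. Of each related list, members past the threshold, or otherwise the 2 with the smallest p, were named. Other names were chosen after their values were seen. Promoter sequences are RefSeq's.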

Additional observations from a re-analysis of the deposited data

How the results depend on the processing

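The count of 0 passing mitochondrial enzymes, and of 0 cytosolic enzymes passing as higher, held in all 16 alternatives, though DESeq2 gave no adjusted p to 13 of the 16 mitochondrial enzymes. The number of cytosolic enzymes passing as lower was 1 with library size scaling, no filter, limma-voom and cyclic loess, 2 with DESeq2, and 0 in every fit that left out a library. LARS1 passed in 5 alternatives and GARS1 in 1. Library size scaling moved the median of all genes to -0.04, the cytosolic median to -0.09 and the mitochondrial median to -0.05. Leaving out single libraries gave cytosolic medians of -0.08 to -0.02 and mitochondrial medians of -0.05 to 0.01. The number of cytosolic enzymes lower at an unadjusted p under 0.05 ranged from 2 to 8.

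Over all genes, 60 were higher and 28 lower. The counts were 32 and 54 with library size scaling, 166 and 98 without a filter, 186 and 63 with DESeq2, and 18 and 14 with the replicate block. Higher calls numbered 92 with limma-voom and 29 with cyclic loess. Leaving out single libraries gave 15 to 61 higher and 9 to 39 lower. The cause of these shifts was not tested. The replicate block changed no call of a synthetase. Same-numbered libraries deviated with correlations of -0.0486, 0.0284 and 0.0633, and not every library correlated best with its own number, so the numbers were not taken to pair them.

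Signs of near-zero values turned with library size scaling in KARS1, SARS1, VARS1 (0.00 each after rounding), RARS2 and AIMP2 (-0.01 each), and with cyclic loess in WARS2 (0.01). Without single libraries the log2 fold change ranged from -0.06 to 0.03 for FARSB, -0.02 to 0.05 for KARS1, 0.00 to 0.06 for VARS1, -0.03 to 0.10 for IARS2, -0.14 to 0.04 for MARS2, -0.10 to 0.06 for NARS2, -0.05 to 0.13 for PARS2, -0.18 to 0.12 for TARS2, -0.89 to 0.03 for VARS2, -0.08 to 0.11 for WARS2, -0.12 to 0.03 for YARS2, -0.08 to 0.00 for ATF4 and -0.01 to 0.07 for AIMP2. In all, 22 of 35 synthetases kept their sign in every alternative run, 15 of them cytosolic. Few counts limit VARS2, with 6 to 24 per library, and SARS2, with 51 to 106, and whether depth or the assignment of reads to genes sets these counts was not tested.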
